A study of Mus musculus with 4 samples.

Results

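Cytotoxic T cells and natural killer (NK) cells were followed in mouse liver through 10 genes: Gzma, Gzmb, Prf1, Nkg7, Cd3e, Cd3g, Cd8a, Klrb1c, Il2rb and Ccl5. The genes were chosen from measured values of this same comparison, knockout over wild type, so their ratios are a description and carry no test. Every probe named for one of them, by the gene name in the files or by the symbol of its accession, was taken. All 10 genes were on the array, by 13 probes in 22 spots, among 31705 genes in all. Of the 10, 8 passed the filter on dim probes, as did 19658 genes in all; Klrb1c and Cd8a did not pass.

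The study compared livers of male C57BL/6 mice that lacked Ilrun (IlrunKO) with livers of wild-type (WT) male C57BL/6 mice. All mice were kept on chow and fasted for 4 hours, and total RNA of whole liver was labelled. Each of 4 two-colour Agilent arrays held 1 IlrunKO and 1 WT liver; IlrunKO was labelled with Cy5 on arrays 1 and 2 and with Cy3 on arrays 3 and 4. The labels call the arrays biological replicates, and they give neither the animals' age nor how the allele was made. The 4 arrays lay on 1 slide. Between 60.0% and 67.3% of probes were well above background in a channel. The brighter Ilrun probe had a mean log2 ratio of -4.21 ± 0.24 (SD, n = 4 arrays), and its adjusted p in limma was 0.0033.

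Cytotoxic lymphocytes kill infected or damaged cells by releasing granules. Perforin opens the target's membrane and granzymes, which are serine proteases, enter through it and start cell death. T cells recognise their targets through the T cell receptor and its CD3 chains, while NK cells read a balance of activating and inhibitory receptors. The liver holds many resident NK and T cells in its sinusoids, beside the Kupffer cells. In whole liver, fewer cells of a type and less RNA per cell cannot be told apart.

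The probes are 60-base DNA oligos. The last 30 bases of 5 of them are given here because these probes carry the largest ratios, or the disagreement between probes, described next. Capitals mark AATAAA, the usual polyadenylation signal.
Nkg7, brighter probe: ccaccttgccttatccttcattggtttctt
Nkg7, dimmer probe: ccagtatgagatggagccagactccatttt
Cd3e: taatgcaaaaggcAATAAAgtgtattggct
Cd3g: agaactgtcaaagaaattttggtctttttt
Ccl5: acccaagaaatcagcatttcattgaaattt
The brighter Nkg7 probe lies on the + strand at chr7:50693530-50693589 of mm9, and the dimmer one at chr7:50693148-50693207. The Cd3e probe lies at chr9:44806828-44806887, the Cd3g probe at chr9:44777868-44777927 and the Ccl5 probe at chr11:83339296-83339355, all on the - strand. Exons and UTRs were not assigned, since no mm9 annotation was used here. AATAAA stood in 2 of the 13 member probes, those of Cd3e and Gzma, and in 12.6% of all 39429 probes. Both Nkg7 probes had a GC content of 45.0%, and neither shared a run of 16 bases with another probe on the array, on either strand. The 2 Klrb1c probes shared such a run with 3 and 1 other probes. The probes of Gzma, Cd3g and Il2rb each shared one with 1 other probe.

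Gzma, Gzmb and Prf1, the granule proteases and the pore protein, differed little between the genotypes. Gzma (granzyme A) had log2 ratios of IlrunKO over WT of -0.08, 0.45, -0.02 and 0.07 on arrays 1 to 4, a mean of 0.11 ± 0.24 (SD, n = 4). Array 2 stood above the other arrays there, and the channels overlapped. Gzmb (granzyme B) gave -0.05, 0.20, 0.16 and 0.05, a mean of 0.09 ± 0.11 (SD, n = 4). Prf1 (perforin) gave 0.17, 0.00, -0.07 and -0.10, a mean of -0.00 ± 0.12 (SD, n = 4). For each of these 3 genes the IlrunKO and WT channels overlapped, and the mean was smaller than the SD between arrays.

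Nkg7 encodes a membrane protein of cytotoxic granules, and its probes pointed in opposite directions. The brighter probe gave -0.53, -0.53, -0.98 and -0.99, a mean of -0.76 ± 0.26 (SD, n = 4), which is 1.69-fold lower in IlrunKO. Its level, as log2 intensity after scaling between arrays, lay from 9.05 to 9.27 in the IlrunKO channels and from 9.79 to 10.06 in the WT channels, with no overlap. The pairs of arrays with opposite dyes stood apart: the mean was -0.53 on arrays 1 and 2 and -0.99 on arrays 3 and 4. The dimmer probe gave 0.02, 0.30, 0.14 and 0.15, a mean of 0.15 ± 0.11 (SD, n = 4). Its IlrunKO channels lay from 6.78 to 6.96 and its WT channels from 6.66 to 6.76, so they did not overlap either, with IlrunKO the higher. Both probes were well above background in all 8 channels. No direction for Nkg7 as a gene can be given from 2 probes that disagree. Of the genes next to Nkg7, Etfb had a log2 ratio of -0.04, Cldnd2 of 0.00 and Siglecg of 0.01; none passed the test.

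Cd3e and Cd3g, chains of the CD3 complex that passes on the T cell receptor's signal, lay on opposite sides of 0. Cd3e gave -0.17, 0.17, -0.35 and -0.18, a mean of -0.13 ± 0.22 (SD, n = 4). Cd3g gave 0.12, 0.09, 0.18 and 0.33, a mean of 0.18 ± 0.11 (SD, n = 4), and was well above background in 3 IlrunKO and 3 WT channels only. Array 2 was the one array where Cd3e was above 0, whereas Cd3g was above 0 on all 4; the channels of both genes overlapped. Cd8a, the co-receptor chain of cytotoxic T cells, was not well above background in any of the 8 channels by either of its probes. Klrb1c, the NK1.1 antigen of NK cells, was well above background in 2 IlrunKO and 2 WT channels by its brighter probe and in 1 and 1 by the other. Cd8a and Klrb1c were therefore near the detection limit of these arrays, while Cd3e was clearly measured. Not every marker of these cells was that dim. Cd8b1, the other chain of the co-receptor, passed the filter, well above background in 3 IlrunKO and 3 WT channels. Its log2 ratio was 0.01. The NK cell receptor gene Klrd1 passed with 3 IlrunKO and 4 WT channels, at a log2 ratio of -0.02.

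Il2rb, the shared chain of the interleukin-2 and interleukin-15 receptors, gave -0.10, 0.11, 0.14 and 0.24, a mean of 0.10 ± 0.14 (SD, n = 4). It was below 0 on array 1 alone, and its channels overlapped. Ccl5, a chemokine of activated T and NK cells that draws further leukocytes, gave 0.08, 0.69, 0.71 and 0.51. Its mean was 0.50 ± 0.29 (SD, n = 4), 1.41-fold higher in IlrunKO. Its level lay from 8.67 to 9.11 in the IlrunKO channels and from 8.33 to 8.59 in the WT channels. These did not overlap, and array 1 held the lowest IlrunKO level.

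**Figure D1:**
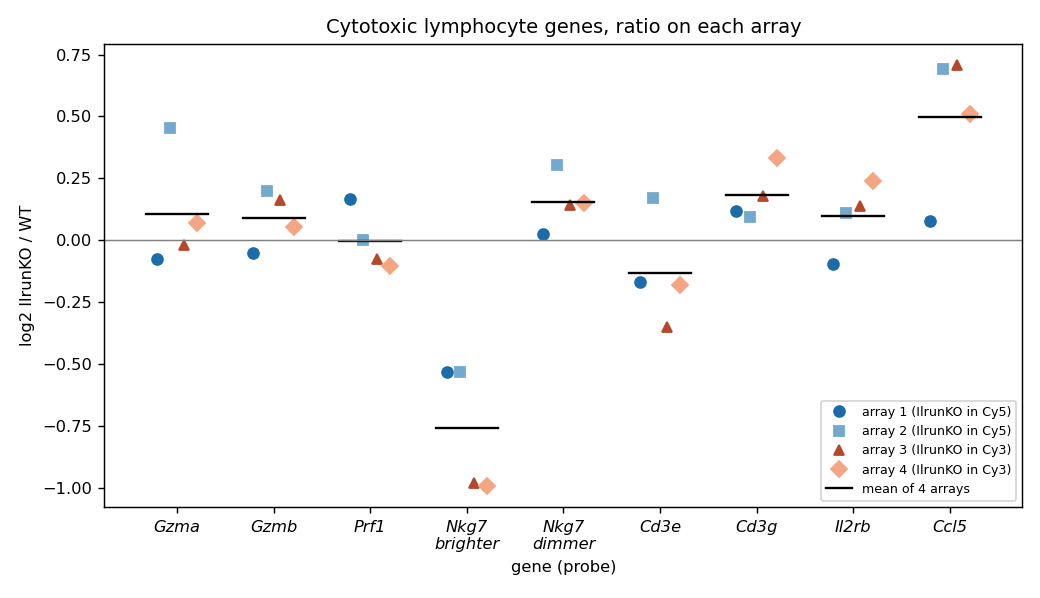
Log2 ratio of IlrunKO over WT (vertical axis) for the 8 measured genes, with both Nkg7 probes; each symbol is an array and the bar is the mean of the 4 arrays. The Nkg7 probes fall on opposite sides of 0, at means of -0.76 and 0.15, and Ccl5 is above 0 on every array.

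**Figure D2:**
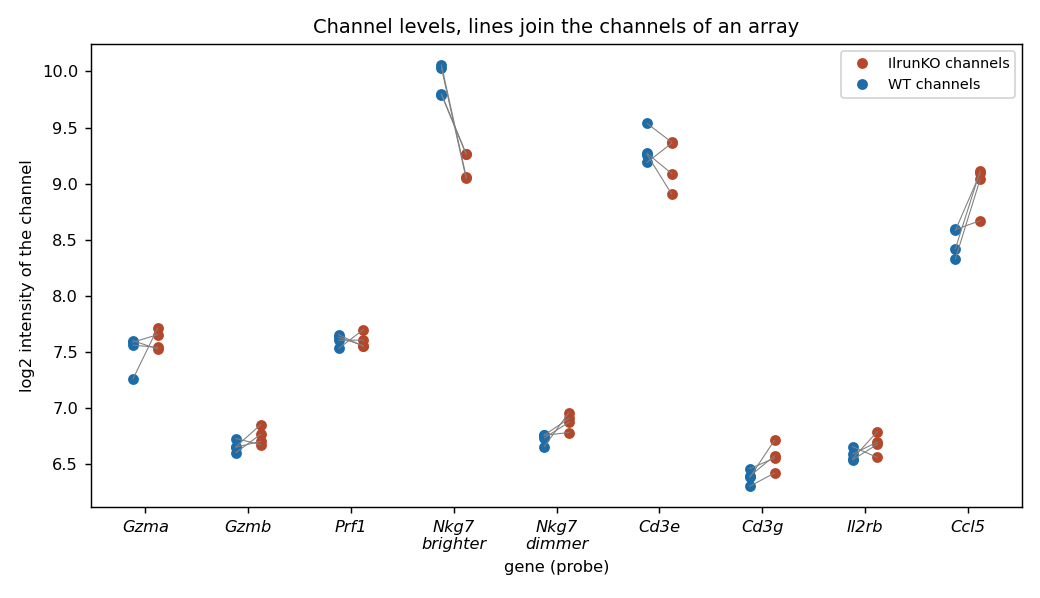
Log2 intensity of each channel (vertical axis) for the same probes, with a line joining the WT and IlrunKO channels of an array. The genotypes do not overlap for either Nkg7 probe or for Ccl5, and overlap for the rest.

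Across the 8 measured genes the median log2 ratio was 0.09, against -0.00 over all genes tested. Of the 8, 5 had a mean above 0. Those above 0 on all 4 arrays were Cd3g and Ccl5, where 11.7% of all genes were; 1, Nkg7 by its brighter probe, was below 0 on all 4, where 11.6% were. The channels did not overlap with IlrunKO higher for 1 gene, Ccl5, against 4.75% of all genes, and with IlrunKO lower for 1, Nkg7, against 4.22%. These counts rest on the contrast that chose the genes. By array, the members' median was -0.06, 0.14, 0.06 and 0.06, so array 1 was the lowest and array 2 the highest. Pan-leukocyte genes had the same order at the ends, with medians of -0.05, 0.45, 0.21 and 0.23, as had Kupffer cell and macrophage genes, with -0.24, 0.83, 0.38 and 0.56. That order was not particular to leukocytes: endothelial genes had it too, with -0.22, 0.13, -0.13 and -0.12. So had the neutrophil, NK cell receptor, chemokine and interferon-gamma lists described below. The T cell receptor list was highest on array 4, at 0.13. The part of leukocytes or Kupffer cells in the members' ratios was not tested.

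The 8 channels gave no common course for the members. The correlation of a member's level with the mean level of the measured members, which holds the member itself, ran from -0.18 for Prf1 to 0.82 for Gzma over 8 channels. Among genes outside the list, Smco1 had the highest correlation with that mean, 0.96. The rest of the 8 highest were Dock1, Tmprss2, Gnat2, Fam187b and 3 transcripts without a symbol, not in order of rank. All 8 lay between 0.89 and 0.96. Smco1's own log2 ratio was 0.01. The channels share arrays and dyes, and these are the highest among all measured genes.

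Other genes of the same pathways were taken from 7 lists. Of 138 listed genes 96 were measured; 1 rose, none fell, and 95 did not pass limma's test at an adjusted p of 0.05, where 1.37% of all 19658 genes passed. At an unadjusted p under 0.05 there were 21, against 20.5% of all genes. The counts at that cutoff given below for single lists are to be read against the same 20.5%. The median log2 ratio of the 96 was 0.09.

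The gene that rose was Il12rb1, a chain of the interleukin-12 receptor that T and NK cells carry. Its log2 ratios were 0.09, 0.23, 0.92 and 0.93, and it was 1.46-fold higher in IlrunKO, with an adjusted p in limma of 0.0345. The arrays with IlrunKO in Cy3 gave the larger ratios. A dimmer Il12rb1 probe gave a log2 ratio of 0.08, which did not pass the test. The call held in 9 of 17 alternatives, with adjusted p in limma from 0.00239 to 0.271. Among the 17 is the looser threshold of 0.1, which keeps the main fit, so no call can be lost there. The call was lost without array 2, 3 or 4, without the dye term and with all probes of a gene averaged. It was also lost with median centring, with Agilent's processed signals and with a trended and robust variance.

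In the T cell receptor list, 21 of 24 genes were measured, with 0 of 21 past limma's threshold, 4 at an unadjusted p under 0.05 and a median of 0.06. Zap70, the kinase that binds the activated receptor, gave -0.95, -0.30, -0.71 and -0.61 (adjusted p in limma 0.0783), and a second Zap70 probe gave a log2 ratio of -0.63. Cd4 gave -0.01, 0.10, -0.81 and -0.71 (adjusted p in limma 0.0554), and its dimmer probe gave -0.03. Fyb, an adaptor of T cells that myeloid cells also carry, had a ratio of 0.34, and 0.12 by its dimmer probe.

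Of 25 NK cell receptor genes 22 were on the array and 7 of these were measured, with 0 past limma's threshold, 1 at an unadjusted p under 0.05 and a median of -0.02. Ncr1, which defines NK cells, was not well above background in any channel, and Klrk1 was in 2 IlrunKO and 1 WT channels. The largest ratios were those of the adaptors Tyrobp, 0.39, and Hcst, 0.16, which macrophages also express; Klra9 followed at 0.05. The Klra genes form a family of related sequences, and whether their probes bind each other's RNA was not checked.

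Of the granule genes 14 of 22 were measured, with 0 past limma's threshold, 2 at an unadjusted p under 0.05 and a median of 0.03. Gzmm (granzyme M) had a log2 ratio of 0.20. Stxbp2, which helps granules fuse, had 0.24, but its dimmer probe gave -0.06. Serpinb6b, a protease inhibitor, had -0.20. In the interleukin receptor and signalling list, 10 of 15 were measured with a median of 0.02; beside Il12rb1, Jak3 gave 0.06, 0.84, 0.35 and -0.00, a mean of 0.31, and Il2rg, the common gamma chain, had 0.29. The dimmer Jak3 probe gave 0.07.

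Chemokines and homing genes had a median of 0.12 over the 15 of 17 measured, with 0 past limma's threshold and 4 at an unadjusted p under 0.05. Cxcl10, which attracts T and NK cells, gave 0.72, 0.90, 0.16 and -0.04 (adjusted p in limma 0.0564). The integrin chains Itgb2 and Itgal had ratios of 0.35 and 0.32. Transcription factors of these lymphocytes had a median of 0.01 over the 10 of 16 measured, with 0 past limma's threshold and 1 at an unadjusted p under 0.05. Tox had a ratio of 0.53, Id2 of 0.16 and Tcf7 of -0.14. Tcf7 passed the filter through the WT channels alone, well above background in 2 IlrunKO and 4 WT channels. Tbx21 and Eomes, which direct the cytotoxic program, did not pass the filter.

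Interferon-gamma, which these cells secrete, and its targets had a median of 0.19 over all 19 listed genes. None of the 19 passed limma's threshold, and 7 had an unadjusted p under 0.05, against 20.5% of all genes. Ifng itself passed the filter through the IlrunKO channels alone, well above background in 3 of them and in 0 WT channels, so it is left out of the next counts. Of the other 18, 16 were above 0, against 49.4% of all genes, and 9 were above 0 on all 4 arrays, against 11.7%. The list was chosen with earlier results of these data known, so these shares are a description and not a test. Ifi47, an interferon-inducible GTPase, gave 0.42, 1.13, 0.65 and 0.64 (adjusted p in limma 0.0753). Irf1, a transcription factor of the response, had a ratio of 0.48, and the GTPase Igtp had 0.45. Array 2 was again the highest, with a median of 0.39 over all 19 genes, Ifng included.

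**Figure D3:**
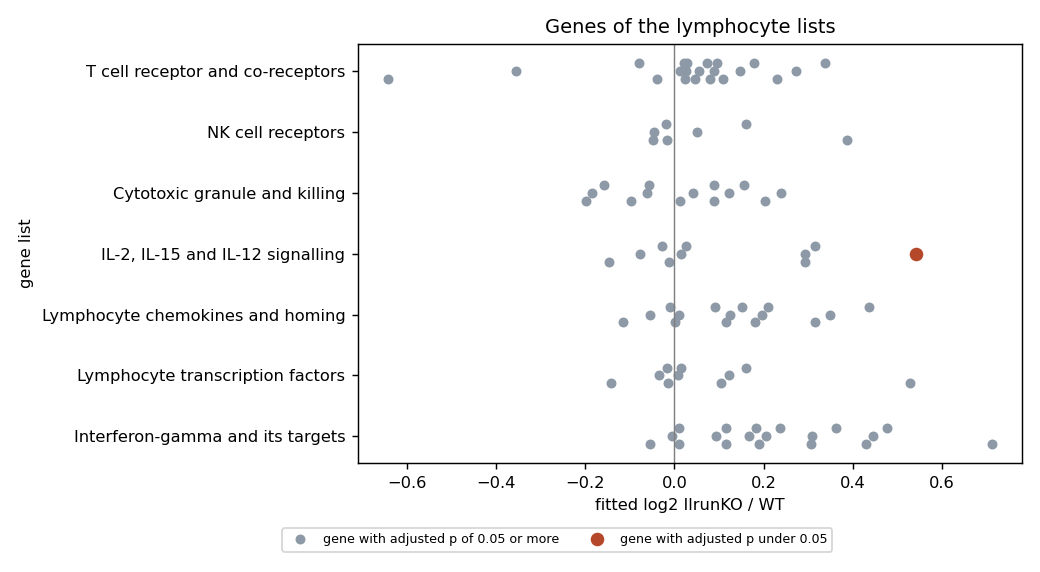
Fitted log2 ratio of IlrunKO over WT (horizontal axis) for the 96 measured genes of the 7 lymphocyte lists; each point is a gene. Il12rb1, at 0.54, is the 1 gene past the threshold, and 17 of the 19 points of the interferon-gamma list lie right of 0, Ifng among them.

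Leaving out any 1 array leaves a single array of its dye orientation, which then carries as much weight as the other 2 together, and that single array is assumed to vary like the others. Without array 1, 10 of the 96 passed limma's threshold, where 2.37% of all genes passed. Without array 2, Zap70 and Ifi47 passed; without array 3 or 4 none of the 96 did, and 1 gene of all did. The 10 without array 1 were Irf1, Tyrobp, Zap70, Igtp, Psmb8, Ifi47, Nlrc5, Il12rb1, Itgb2 and Fyb; Zap70 was lower in IlrunKO and the other 9 were higher. The second Nlrc5 probe gave a log2 ratio of 0.04 over all 4 arrays.

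Markers of other cells in the liver were read beside these genes. The medians over 4 arrays were 0.28 for 14 pan-leukocyte genes and 0.42 for 15 Kupffer cell and macrophage genes. They were -0.02 for 8 B cell, 0.01 for 5 neutrophil and -0.00 for 6 dendritic cell genes. They were -0.26 for 7 erythroid, -0.32 for 10 hepatocyte and -0.12 for 9 endothelial genes. The hepatocyte median was -0.06 and 0.01 on arrays 1 and 2 and -0.34 and -0.33 on arrays 3 and 4, and without array 3 it was -0.15. The erythroid median was -0.40 without array 3. None of these 8 lists held a gene past limma's threshold. At an unadjusted p under 0.05 there were 8 pan-leukocyte, 8 Kupffer cell, 8 hepatocyte and 4 endothelial genes, and 1 in each of the other lists. The share over all genes was 20.5%. Of 9 adipocyte genes, Adipoq, Plin1 and Lep were not well above background in any channel. The 6 measured had a median of 0.87, and 2 rose: Adrb3, a receptor of fat cells (1.04, adjusted p in limma 0.0301), and Cfd, an adipocyte protease (3.82, adjusted p in limma 0.0465). Cidec had 1.53 (adjusted p in limma 0.0546), and Fabp4, the 1 measured gene below 0, had -0.11. The dimmer probes of Adrb3 and Cidec gave smaller log2 ratios, 0.60 and 0.71. The call of Cfd held in 9 of 17 alternatives and that of Adrb3 in 13, the looser threshold of 0.1 on the main fit among them. Marco, a Kupffer cell receptor, gave -0.34, 2.66, 1.64 and 1.34. Cd163, the 1 gene below 0 in the Kupffer cell and macrophage list, gave -0.21, -0.29, -0.13 and -0.36. In the pan-leukocyte list the 1 gene below 0 was Lcp1, at -0.41 (adjusted p in limma 0.0610) and -0.18 by its dimmer probe. Over the means of the 3 arrays left, Kupffer cell genes had a median of 0.63 without array 1 and 0.29 without array 2, and the members had 0.15 and 0.025. Whether more leukocytes in the IlrunKO livers had a part in the ratios of Ccl5 or of the interferon-gamma list was not tested.

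**Figure D4:**
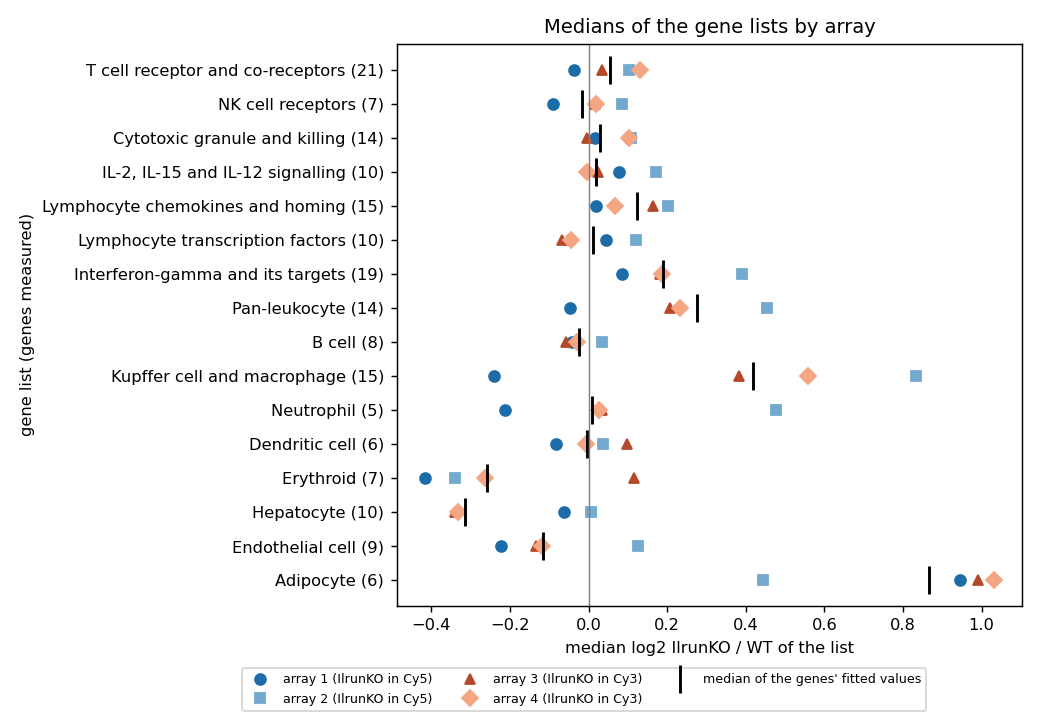
Median log2 ratio of IlrunKO over WT (horizontal axis) of each gene list on each array, with the number of genes measured; the black tick is the median of the genes' fitted values. Array 1 is the lowest for the pan-leukocyte and Kupffer cell lists, at -0.05 and -0.24, and also for the endothelial list, at -0.22.

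Promoter sequence was available for 8 of the 10 members (RefSeq, GRCm38.p6); Ccl5 and Il2rb were not matched. In the 250 bases before the start, on both strands, the RUNX motif TGTGGT stood in 5 of 8, against 14.05% of all 32851 promoters. The ETS motif AGGAAG stood in 4 (29.5% of all), the IRF motif AANNGAAA in 3 (21.3%), the T-box motif GGTGTGA in 1 (3.3%) and the STAT motif TTCNNNGAA in 1 (7.0%). RUNX matches are shown, in capitals, because that motif was the most frequent among the members; a match is not a binding site. They are given for the 4 of the 5 genes that passed the filter, with the match farthest from the start where Gzmb had more than 1. No match of one motif overlapped a match of another in the members.
Nkg7, chr7:43437043-43437072: gggcccacccctACCACAtaggaggagagg
Prf1, chr10:61297694-61297723: tgggaacctgtgACCACActctgggggcag
Gzma, chr13:113101014-113101043: gagaagaacaaaACCACAtcctttgcactc
Gzmb, chr14:56262410-56262439: accctatgccctTGTGGTcttgccctgggc
Each is written in its gene's direction, on the + strand for Nkg7 and Prf1 and the - strand for Gzma and Gzmb. Nkg7 held the T-box match too, 13 bases before its start. These 4 genes had mean log2 ratios of -0.76 (0.15 by the dimmer probe), -0.00, 0.11 and 0.09.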

How the data were processed

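Total RNA of 4 IlrunKO and 4 WT livers was measured on 4 two-colour arrays. Per the file headers, the authors scanned them with Agilent Feature Extraction 10.10.1.1, and the deposited scanner files hold linear intensity per spot, flags and a log10 ratio; probe positions are mm9. The deposited value table held log2 ratios, checked against the scanner files on each array; the submitters' processing notes name limma. The raw mean intensity was corrected with normexp (offset 50) and loess in limma 3.58.1 (R 4.3.3), without control and outlier spots. The brightest probe stood for a gene, kept if 3 or more of its 4 channels of either genotype were well above background. Genes lacking a value on 1 array stayed in; whether to keep them was settled after both counts of calls were seen, because the planned design set no such filter, and the fit without them is given as an alternative. The model had a genotype and a dye term, with Benjamini-Hochberg adjustment over all genes kept. The number of arrays limits the precision. Within each list, genes past the threshold, then the largest ratios up to 3, were named. Second probes, genes called without array 1, absent defining markers and the neighbours of Nkg7 were added after their values were seen. So were Marco, Cd163, Lcp1, Cd3d, Cd247, Cd8b1 and Klrd1. The members and lists were chosen with earlier results of these data known.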

Additional observations from a re-analysis of the deposited data

Results flagged for a closer look

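In 5 of 75 sets of 4 values, 1 value stood far from the other 3. Chance flags about 1 in 20 sets of 4 independent values of a kind, and 5 is near that rate. The arrays differ in dye orientation and each member probe gave 3 sets, so the rate is only a rough guide. The WT level of Gzma on array 2 was 7.26, where the other arrays lay from 7.56 to 7.60. The IlrunKO level of Ccl5 on array 1 was 8.67, where the others lay from 9.04 to 9.11. The log2 ratio of Vav1, a leukocyte signalling protein, was -0.29 on array 1 and from 0.72 to 0.82 on the others. That of Cd5l, a Kupffer cell gene, was -0.43 on array 1 and from 0.82 to 1.02 on the others. The ratio of Tcf7, which passed the filter through the WT channels alone, was -0.32 on array 2, below those of the others.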

How the results depend on the processing

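Over all genes 269 passed the threshold, of the 96 lymphocyte genes 1, and the members' median was 0.09. Without background correction 440 and 2 passed, and with the deposited values 450 and 2. With Agilent's processed signals 61 and 0 passed, with a members' median of 0.191. With median centring 1 and 0 passed. With a trended and robust variance in limma 0 and 0 passed, though 3560 and 21 had an unadjusted p under 0.05. At an adjusted p under 0.1 there were 1126 and 6, and with the channels fitted separately and the array as a block 2547 and 17. Of the lymphocyte genes 0 passed without the dye term or with all probes of a gene averaged, and 2 without the filter. Leaving out 1 array gave from 1 to 465 genes, and from 0 to 10 lymphocyte genes. Over the same omissions of 1 array, the members' median ranged from 0.033 without array 2 to 0.15 without array 1. Leaving out 1 array, Gzma ranged from -0.025 (without array 2) to 0.24 and Prf1 from -0.045 (without array 1) to 0.039 (without array 2), with 0.0048 without array 4. Nkg7 had 0.15 by the dimmer probe. Chosen after seeing the data were the dimmer Nkg7 probe, the median without Nkg7 or over all members, and the fit of the 19566 genes with all 4 arrays; in that last fit 288 genes passed. The cause of these differences was not tested. Every fit of ratios pairs the livers of an array.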
